A study of Homo sapiens with 4 samples.

Results

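The 36 genes described here are the oxygen sensors, the subunits of the hypoxia-inducible factors (HIF) and HIF target genes outside glycolysis, chosen by name. The list was drawn up with earlier results of these data known. The deposited table of 57659 genes held 35 of the 36, and no row was named EGLN2. Of the 35, 33 passed the filter on low values (at least 10 in at least 2 libraries), and CA9 and HIF3A did not. Expression was measured by RNA-seq of poly(A)-selected RNA in 786-0 cells, an established human renal cell carcinoma line, after transfection with control siRNA (Control 1 and Control 2) or with siRNA against SLFN5 (SLFN5 siRNA 1 and SLFN5 siRNA 2). The series title ties SLFN5, a Schlafen family protein, to motility and invasiveness of these cells. All libraries came from the same line, and the labels give no oxygen tension, time after transfection or statement that libraries of a group were separate cultures. The p-values therefore measure only the spread between these libraries, which may be technical.

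In normal oxygen, the prolyl hydroxylases (EGLN1, EGLN2 and EGLN3) hydroxylate HIF alpha subunits. The VHL protein then marks those subunits for degradation, and the asparaginyl hydroxylase HIF1AN blocks their transactivation. At low oxygen, or without VHL, an alpha subunit (HIF1A or EPAS1, which encodes HIF-2 alpha) pairs with ARNT and binds a short core motif near target genes. Clear cell renal carcinomas often lose VHL, and 786-0 cells are known to lack functional VHL protein and to rely on HIF-2 alpha, so many HIF targets are active in them at normal oxygen. HIF activity is set largely at the level of protein, which RNA counts do not measure.

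The deposited values are counts that the authors adjusted to a common library size, called equalised counts here. The counts behind them could be recovered exactly and totalled 31905328 for Control 1, 13187517 for Control 2, 17117659 for SLFN5 siRNA 1 and 14700669 for SLFN5 siRNA 2. The siRNA target itself was lower in both SLFN5 siRNA libraries, with SLFN5 at 420.3 and 353 equalised counts in the controls and 167 and 118 after SLFN5 siRNA (log2 change -1.45, SE 0.21, limma adjusted p = 0.000524). Among markers set out for kidney epithelium and carcinoma, all 9 were measured at 10 or more in at least 2 libraries, among them PAX8 at 3392 to 4129. The list summed to 119918 to 127349 in the controls and 102075 to 104650 after SLFN5 siRNA. Most of that sum was VIM, at 104237 and 99893 in the controls and 74342.5 and 73630 after SLFN5 siRNA. In the limma fit LHX1 (log2 change 1.14) and CDH6 (1.42) passed as higher and VIM (-0.46) as lower. The other markers of that list did not pass. Of 7 leukocyte markers, those at 0 recovered counts included CD3E and MS4A1 (at most 3 are then compatible with the depth), and the list summed to 29.6 and 37.0 in the controls and 25.7 and 30.7 after SLFN5 siRNA. The 7 endothelial markers summed to 26.4 and 32.6 against 40.9 and 50.8, with PECAM1 at 0 recovered counts. The 7 fibroblast markers summed to 121 and 191 against 85.4 and 111, with none of them at 0 counts. The part of other cell types in the results was not tested.

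More of these genes rose than fell after SLFN5 siRNA. Secreted and angiogenic targets, the largest role group with 7 tested genes, held 5 of the increases. Increases were called for 14 of the 33 tested genes (42.4%) and decreases for 4 (12.1%), which left 15 without a call (limma on log2(value + 1), adjusted p under 0.05 over 15640 genes). Among all tested genes 13.3% were higher and 16.3% were lower. Because the list was chosen with earlier results of these data known, this contrast is described and was not tested. The median log2 change was 0.46 over the 33 genes and -0.03 over all tested genes. Increases of at least 2-fold that passed were seen for NDRG1, ANGPTL4, STC1, ZNF395, DDIT4, EFNA1 and EGLN3, which is 7 of 33 genes against 5.16% of all tested genes. No decrease that passed reached 2-fold, against 3.13% of all tested genes. The values of the 2 groups did not overlap and were higher after SLFN5 siRNA for 19 of the 33 genes, against 30.5% of all tested genes. They did not overlap and were lower for 8 of the 33, against 34.1% of all tested genes. With library totals alone as the scale, which moved the median of all genes to 0.09, 16 members were higher and 3 were lower, and 61.4% of all calls were increases in place of 45.1%. Without Control 2, 9 members were higher and 2 lower, and over all genes 1353 were higher and 1588 lower in place of 2086 and 2544. Without an intensity trend in the variance, 6 members were higher and 0 lower.

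**Figure D1:**
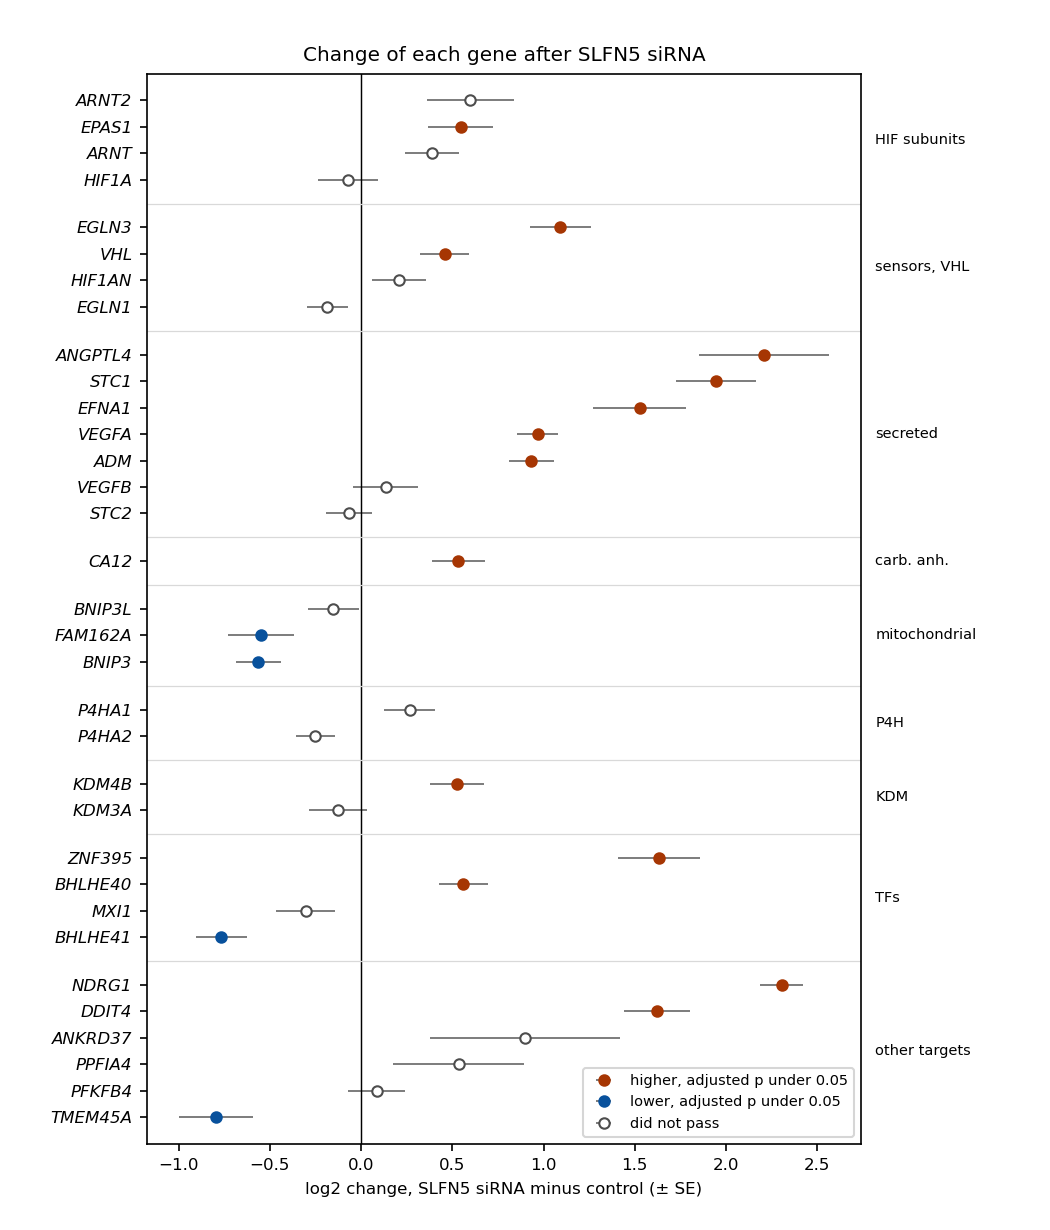
Change of each of the 33 tested genes after SLFN5 siRNA, grouped by role. The x axis is the log2 change (SLFN5 siRNA minus control), bars are the standard error from the limma fit, and filled points passed an adjusted p of 0.05. NDRG1, ANGPTL4, STC1, ZNF395 and DDIT4 lie farthest to the right, and BNIP3, FAM162A, BHLHE41 and TMEM45A are the 4 called decreases.

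**Figure D2:**
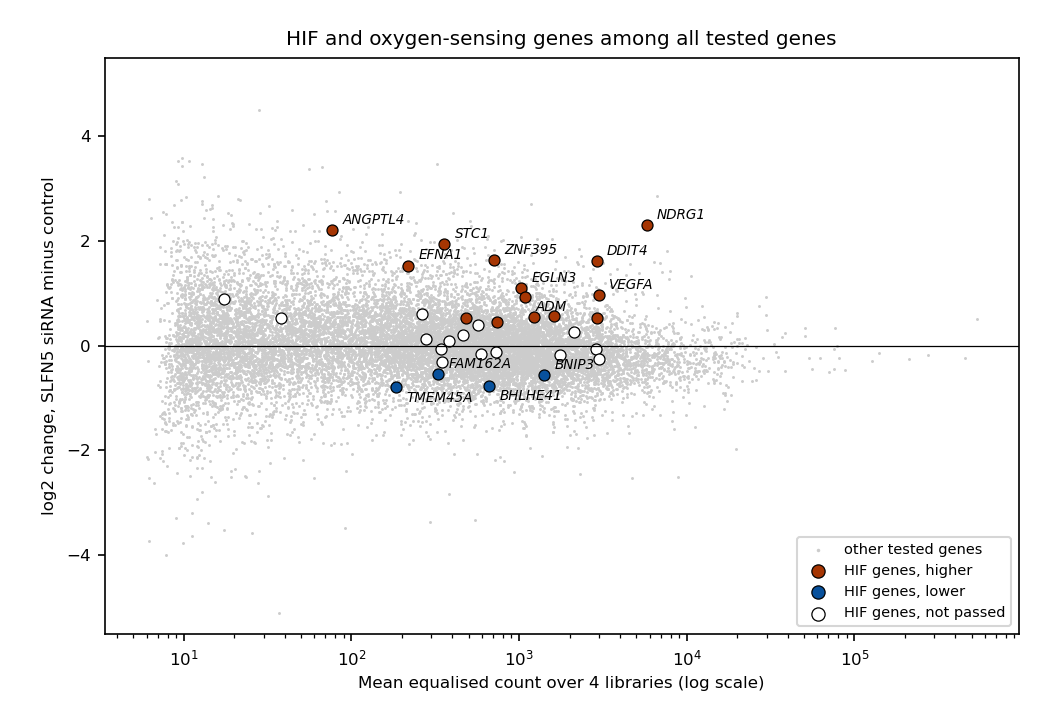
The 33 genes among all 15640 tested genes. The x axis is the mean equalised count over 4 libraries on a log scale and the y axis is the log2 change. NDRG1 is both abundant and strongly higher, with a log2 change of 2.31.

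Promoters of genes that moved in opposite directions were compared for the HIF core motif. The 250 bases before the annotated start were taken from RefSeq (GRCh38.p14, whereas the counts were made on hg19) and searched for ACGTG and GCGTG on both strands. The palindrome CACGTG counts as a match on each strand. RefSeq windows were matched by symbol for 28 of the 35 genes, among them 9 of the 14 higher genes and all 4 lower genes. The higher genes NDRG1, STC1, ZNF395, VEGFA and VHL had no window, and neither had ARNT2 and BNIP3L. At least 1 match stood in a window of 23 of these 28 genes (82.1%), against 47.4% of all 27305 genes with a window. A gene counted if any of its windows held a match, and the 27305 genes were not limited to those expressed in these cells. By call, 8 of 9 higher genes, 3 of 4 lower genes and 10 of 13 genes that did not pass held a match. ACGTG alone was held by 4 of the 9 higher, 3 of the 4 lower and 5 of the 13 other tested genes, against 21.7% of all genes. A match is only a run of letters, and binding was not measured. Windows of 2 genes that rose (DDIT4 and EGLN3) and 2 that fell (BNIP3 and BHLHE41) are shown 5′ to 3′ on the gene's strand, because together they show that matches stood on both sides of the comparison. EGLN3 was the only one of the 9 higher genes without a match, and TMEM45A, the lower gene without one, is not shown. Sequence outside the 250 bases was not searched. Capitals mark the matches.
DDIT4: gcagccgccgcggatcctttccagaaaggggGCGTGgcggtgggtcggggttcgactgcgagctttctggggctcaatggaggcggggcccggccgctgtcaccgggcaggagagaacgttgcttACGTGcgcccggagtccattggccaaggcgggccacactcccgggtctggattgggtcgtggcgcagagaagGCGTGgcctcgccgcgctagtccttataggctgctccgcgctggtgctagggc
EGLN3: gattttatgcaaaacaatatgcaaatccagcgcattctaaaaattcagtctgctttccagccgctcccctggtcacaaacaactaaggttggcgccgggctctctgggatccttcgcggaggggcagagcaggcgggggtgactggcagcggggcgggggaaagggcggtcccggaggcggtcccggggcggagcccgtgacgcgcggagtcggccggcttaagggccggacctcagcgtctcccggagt
BNIP3: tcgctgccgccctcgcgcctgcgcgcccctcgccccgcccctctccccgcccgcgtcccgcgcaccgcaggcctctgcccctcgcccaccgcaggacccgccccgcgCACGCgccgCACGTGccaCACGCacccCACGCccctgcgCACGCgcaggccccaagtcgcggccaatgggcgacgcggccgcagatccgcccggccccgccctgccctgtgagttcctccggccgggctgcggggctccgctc
BHLHE41: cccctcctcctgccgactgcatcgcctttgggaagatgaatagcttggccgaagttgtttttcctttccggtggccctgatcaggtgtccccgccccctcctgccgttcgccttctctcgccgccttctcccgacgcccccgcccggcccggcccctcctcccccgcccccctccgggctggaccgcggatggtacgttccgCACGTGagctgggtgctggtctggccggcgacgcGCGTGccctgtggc
The DDIT4 window (chr10:72273674-72273923, plus strand) held 3 matches and the EGLN3 window (chr14:33951075-33951324, minus strand) held 0. The BNIP3 window (chr10:131981924-131982173, minus strand) held 6, in a cluster from 143 to 104 bases before the start. The BHLHE41 window (chr12:26125038-26125287, minus strand) held 3, of which 2 are the strands of a single CACGTG.

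Of the HIF subunits, EPAS1 was higher and HIF1A was not distinguishable between groups. EPAS1 (ENSG00000116016) stood at 1157 and 831 equalised counts in Control 1 and Control 2 and at 1645 and 1246 in SLFN5 siRNA 1 and 2. The groups did not overlap, but SLFN5 siRNA 2 was only just above Control 1. The log2 change was 0.55 (SE 0.18, limma adjusted p = 0.0358), but leaving out Control 2 gave 0.31 (adjusted p = 0.282) and leaving out SLFN5 siRNA 1 gave 0.345 (adjusted p = 0.227), neither of which passed. HIF1A (ENSG00000100644) was at 367 and 336 in the controls and 351 and 319 after SLFN5 siRNA, and the 2 groups interleaved (log2 change -0.07, SE 0.16, adjusted p = 0.786). With library totals alone the HIF1A change was 0.05 in the other direction. The library kit does not mark strand, so reads of HIF1A and of its antisense genes cannot be told apart. The third alpha subunit, HIF3A, had 1 recovered count in Control 1 and 0 in the other 3 libraries.

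The partner subunits did not pass with group alone in the model, although their values were higher in both SLFN5 siRNA libraries. ARNT, the constitutive beta subunit, was at 520.1 and 464 in the controls and 607 and 684 after SLFN5 siRNA (log2 change 0.39, SE 0.15, adjusted p = 0.0668). ARNT2, a related beta subunit, was at 251 and 169 against 374.1 and 259.8, where SLFN5 siRNA 2 barely exceeded Control 1 (log2 change 0.60, SE 0.24, adjusted p = 0.0802). Both passed with library totals alone as the scale (adjusted p = 0.0250 for ARNT and 0.0305 for ARNT2). ARNT2 also passed when Control 1 (adjusted p = 0.00979) or SLFN5 siRNA 2 (adjusted p = 0.0388) was left out, and with genes of low values kept (adjusted p = 0.0463).

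Among the sensors, EGLN3 rose and EGLN1 did not pass. EGLN3 (ENSG00000129521), the prolyl hydroxylase that is itself a well-known HIF target, was at 772 and 549 in the controls and at 1513 and 1273 after SLFN5 siRNA. Both SLFN5 siRNA libraries were far above both controls, with a log2 change of 1.09 (SE 0.17, limma adjusted p = 0.000689), a 2.13-fold increase that passed whichever library was left out (adjusted p at most 0.00954). EGLN1, the main hydroxylase of HIF alpha in most cells, was at 1848 and 1905 against 1644 and 1657, lower in both without a call (log2 change -0.18, SE 0.11, adjusted p = 0.247). No row carried the name EGLN2. The row named RAB4B-EGLN2, a readthrough locus that overlaps EGLN2, was at 935 and 939 against 1252 and 1092 (log2 change 0.32, SE 0.13, adjusted p = 0.0829) and is not taken as a value of EGLN2.

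VHL and HIF1AN had smaller differences. VHL (ENSG00000134086), the substrate receptor of the ligase that degrades hydroxylated HIF alpha, was at 641 and 594 in the controls and 869 and 828 after SLFN5 siRNA, with no overlap (log2 change 0.46, SE 0.13, limma adjusted p = 0.0234). Omitting Control 1 (adjusted p = 0.0576), Control 2 (0.179) or SLFN5 siRNA 1 (0.0783) ended the VHL call. A VHL transcript count does not show whether the protein is functional. HIF1AN was at 451 and 412 against 504 and 491 without a call (log2 change 0.21, SE 0.15, adjusted p = 0.330). Of the 8 tested subunit and sensor genes, 3 were thus higher, 0 lower and 5 did not pass. Among all tested genes 13.3% were higher and 16.3% lower, and the difference from these 8 was not tested.

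**Figure D3:**
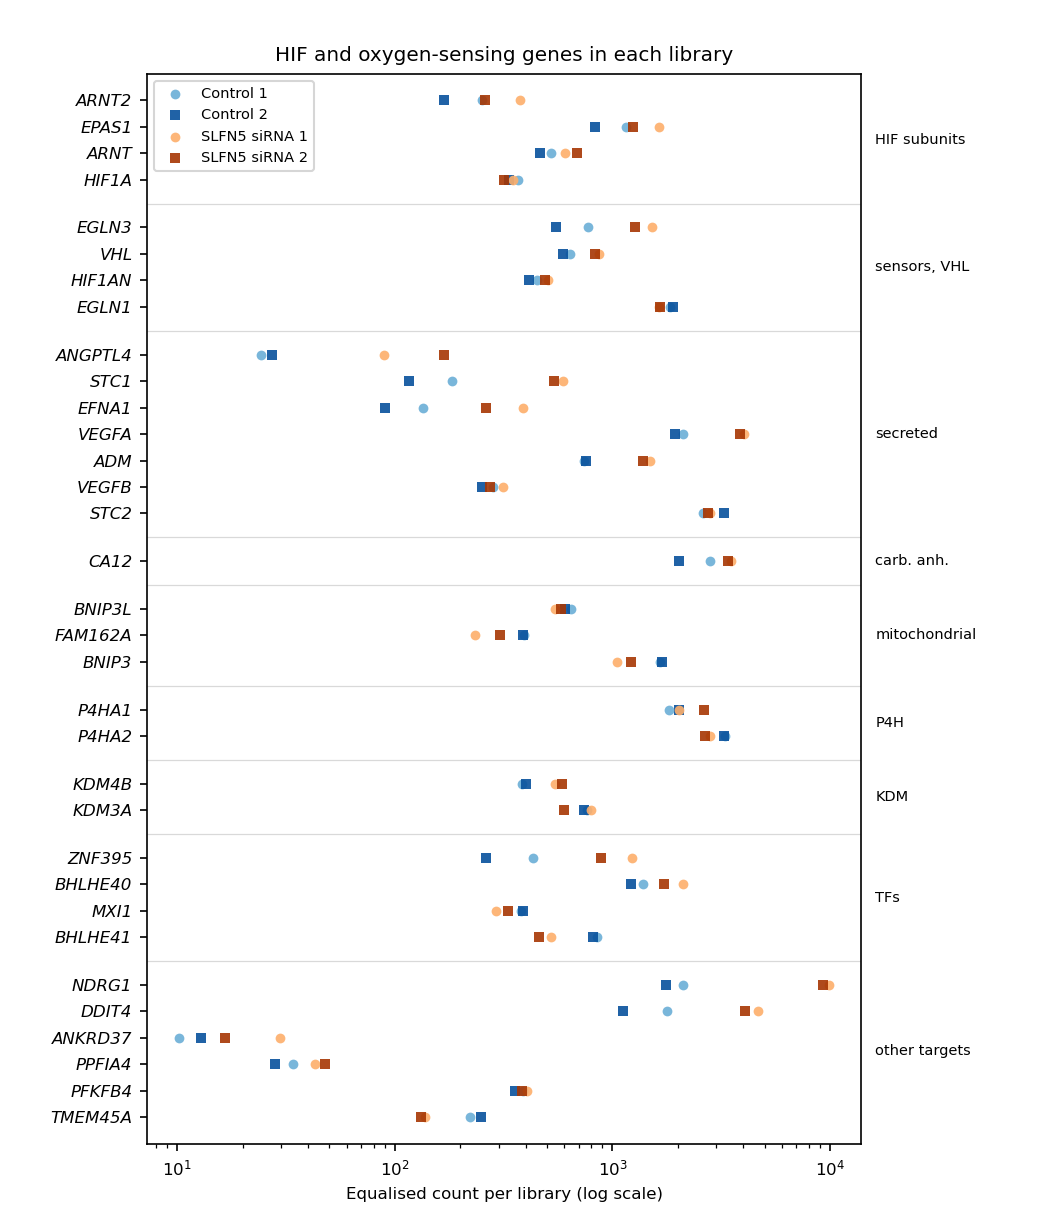
Equalised count of each tested gene in each library. The x axis is on a log scale, blue symbols are the 2 control libraries, orange and brown symbols the 2 SLFN5 siRNA libraries, and circles and squares are libraries 1 and 2 of each group. NDRG1, DDIT4, STC1, ZNF395 and VEGFA show 2 well separated pairs, whereas the symbols of HIF1A, STC2, VEGFB and PFKFB4 interleave.

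Of 7 secreted and angiogenic targets, 5 were higher and 2 did not pass, against 13.3% higher and 16.3% lower among all tested genes. ANGPTL4 (ENSG00000167772), an inhibitor of lipoprotein lipase, was at 24.2 and 27.3 equalised counts in the controls and at 89.1 and 167 after SLFN5 siRNA. SLFN5 siRNA 2 was well above SLFN5 siRNA 1 and both were above both controls, on recovered counts of 42, 19, 87 and 145. The log2 change was 2.21 (SE 0.36, limma adjusted p = 0.000899), or 4.61-fold. STC1 (ENSG00000159167), stanniocalcin-1, a secreted glycoprotein linked to calcium and phosphate handling, went from 183 and 117 to 595 and 538, a 3.85-fold increase (log2 change 1.94, SE 0.22, adjusted p = 9.74e-05). EFNA1, the membrane-anchored ligand ephrin-A1, went from 134 and 90.1 to 386 and 263, a 2.88-fold increase (log2 change 1.53, SE 0.25, adjusted p = 0.00109). For STC1 and EFNA1 the library numbered 1 was the higher in each group, and every SLFN5 siRNA library exceeded every control.

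VEGFA (ENSG00000112715), the main angiogenic growth factor downstream of HIF, was at 2113 and 1932 in the controls and 4035 and 3870 after SLFN5 siRNA. Its libraries lay close together within each group, with a log2 change of 0.97 (SE 0.11, limma adjusted p = 0.000108), a 1.96-fold increase. ADM, which encodes the vasodilator peptide adrenomedullin, was at 742 and 755 against 1485 and 1375, a 1.91-fold increase (log2 change 0.93, SE 0.12, adjusted p = 0.000279). VEGFB, a related growth factor that is not induced by hypoxia in most cells, was at 282 and 251 against 313 and 273 with overlapping groups (log2 change 0.14, SE 0.18, adjusted p = 0.617). STC2, the paralogue of STC1, was at 2604 and 3262 against 2799 and 2762 without a call (log2 change -0.07, SE 0.13, adjusted p = 0.733). The direction of STC2 was not stable, and it turned positive under quantile normalisation (0.09), with library totals alone (0.05) and without Control 2 (0.09).

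Of the targets that act inside the cell on growth and stress, NDRG1 and DDIT4 rose. NDRG1 (ENSG00000104419), a cytoplasmic protein linked to differentiation and to suppression of metastasis, was at 2116 and 1764 in the controls and 9843 and 9285 after SLFN5 siRNA. The increase was 4.95-fold with the smallest adjusted p among the members (log2 change 2.31, SE 0.12, limma adjusted p = 1e-06). DDIT4 (ENSG00000168209), the stress-induced inhibitor of mTORC1 also called REDD1, was at 1779 and 1120.4 against 4642 and 4062, a 3.07-fold increase (log2 change 1.62, SE 0.18, adjusted p = 9.47e-05). Control 1 was well above Control 2 for DDIT4, and both were below either SLFN5 siRNA library.

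TMEM45A, a transmembrane protein induced by hypoxia, went the other way, from 221 and 248 to 138 and 131 (log2 change -0.79, SE 0.20, limma adjusted p = 0.0117). TMEM45A failed the test when Control 2 was omitted (adjusted p = 0.110). ANKRD37, an ankyrin repeat protein and HIF target, was at 10.2 and 12.8 against 29.6 and 16.6, on 18, 9, 29 and 14 recovered counts, without a call (log2 change 0.90, SE 0.52, adjusted p = 0.222). PPFIA4, a liprin scaffold protein, also had low values, at 34.1 and 28.01 against 43.0 and 47.5 (log2 change 0.53, SE 0.36, adjusted p = 0.296). PFKFB4, which makes and degrades the glycolysis activator fructose 2,6-bisphosphate, was at 388 and 357 against 406 and 384 with overlapping groups (log2 change 0.09, SE 0.16, adjusted p = 0.734). Thus 2 of these 6 genes were higher, 1 lower and 3 did not pass.

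The transcription factor targets split. ZNF395, a zinc finger protein induced by hypoxia, went from 431 and 263 to 1236 and 886, a 3.10-fold increase (log2 change 1.63, SE 0.22, limma adjusted p = 0.000340). BHLHE40, also called DEC1, a helix-loop-helix repressor of clock genes, went from 1386 and 1214 to 2116 and 1730.3 (log2 change 0.56, SE 0.13, adjusted p = 0.00903). The BHLHE40 call ended when Control 2 (adjusted p = 0.0586) or SLFN5 siRNA 1 (0.0626) was omitted. Its close relative BHLHE41, or DEC2, fell in both libraries, from 847 and 815 to 519 and 459 (log2 change -0.77, SE 0.14, adjusted p = 0.00194), and that call held without any single library (adjusted p at most 0.0114). MXI1, an antagonist of MYC, was at 381 and 386 against 292 and 329.7 without a call (log2 change -0.31, SE 0.16, adjusted p = 0.187).

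The mitochondrial targets were lower or did not pass. BNIP3 (ENSG00000176171), a mitophagy receptor of the outer mitochondrial membrane, fell from 1655 and 1696 to 1052 and 1222 (log2 change -0.56, SE 0.12, limma adjusted p = 0.00575), a result that held without any single library (adjusted p at most 0.0340). A pseudogene of it, BNIP3P1, with which it may share reads, was at 24.5 to 30.6 equalised counts over the 4 libraries. FAM162A, a mitochondrial protein linked to hypoxia-induced cell death, had values of 391 and 388 in the controls and 233 and 304 after SLFN5 siRNA (log2 change -0.55, SE 0.18, adjusted p = 0.0398). It failed the test when Control 1 was omitted (adjusted p = 0.125), and likewise for Control 2 (0.132) and SLFN5 siRNA 1 (0.191, log2 change -0.36), and with TMM rescaling (0.0766) and with library totals alone (0.111). BNIP3L, the related mitophagy receptor also called NIX, was at 646 and 603 against 543 and 579.6 without a call (log2 change -0.15, SE 0.14, adjusted p = 0.455).

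Carbonic anhydrases, collagen hydroxylases and histone demethylases gave 2 calls, both upward, where 13.3% of all tested genes were higher and 16.3% lower. CA9, the HIF-1 target used as a marker of clear cell carcinoma, was all but undetected, with 2, 0, 2 and 0 recovered counts. CA12, the other membrane-bound carbonic anhydrase among these genes, was at 2795 and 2020 in the controls and 3492 and 3383 after SLFN5 siRNA (log2 change 0.53, SE 0.14, limma adjusted p = 0.0165). CA12 failed the test when Control 2 was omitted (0.30, adjusted p = 0.245), and likewise for SLFN5 siRNA 1 (0.0709) and SLFN5 siRNA 2 (0.0505). KDM4B, a demethylase of histone H3 lysine residues, was at 384 and 402 against 545 and 585 (log2 change 0.52, SE 0.15, adjusted p = 0.0203), and omitting Control 1 (0.110), Control 2 (0.0745) or SLFN5 siRNA 2 (0.0742) ended that call.

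KDM3A, another such demethylase, was at 767 and 743 against 799 and 598 without a call (log2 change -0.13, SE 0.16, adjusted p = 0.594). Its direction turned positive without SLFN5 siRNA 2 (log2 change 0.08). The collagen prolyl hydroxylase subunits had changes of opposite sign, neither of which passed with group alone in the model. P4HA1 was at 1810.0 and 2033 against 2019 and 2638 (log2 change 0.27, SE 0.14, adjusted p = 0.179; 0.46 and 0.0360 without SLFN5 siRNA 1), and P4HA2 at 3276 and 3241 against 2817 and 2663 (log2 change -0.25, SE 0.11, adjusted p = 0.102).

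**Figure D4:**
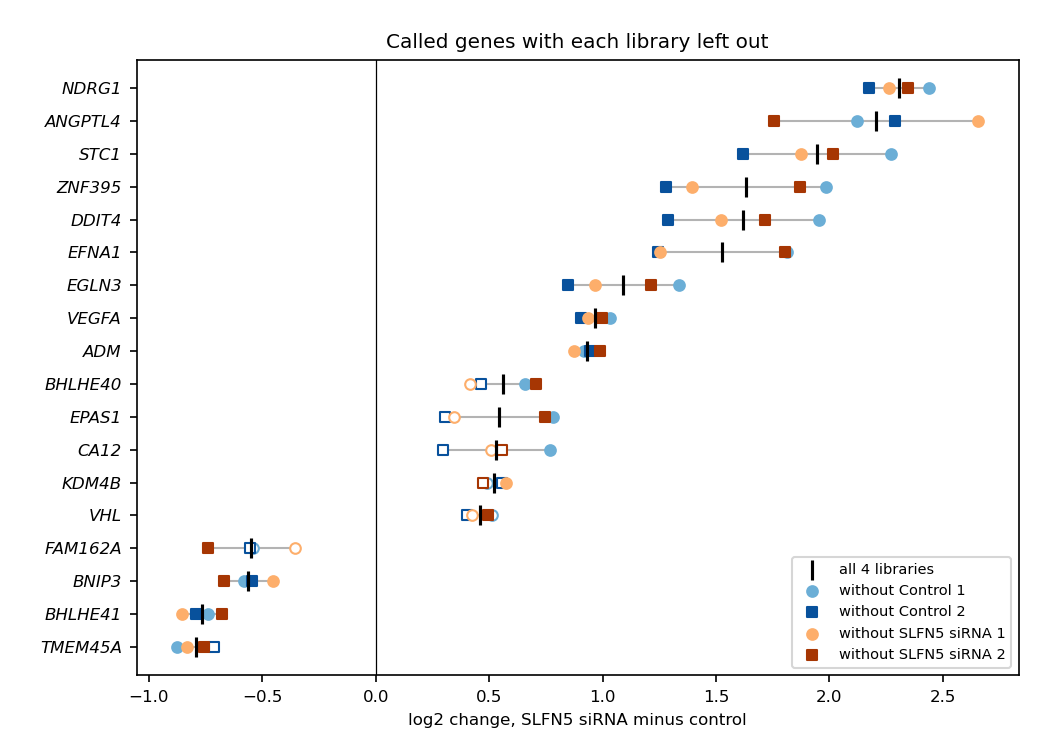
The 18 genes that passed, refitted with each library left out. The x axis is the log2 change, the black bar is the value with all 4 libraries, and coloured symbols are the values without the named library, open where the adjusted p rose to 0.05 or above. The 9 largest increases stay filled throughout, and open symbols gather among increases below 0.6 and at FAM162A and TMEM45A.

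Most of the large changes kept their call when a library was left out. Of the 18 genes, 11 kept their call without each of the 4 libraries in turn, and 9 of those were increases. The other 7 lost it without at least 1 library, and none of the 18 changed direction under any of the 14 alternatives. The 9 increases were NDRG1, ANGPTL4, STC1, ZNF395, DDIT4, EFNA1, EGLN3, VEGFA and ADM, and the 2 decreases BHLHE41 and BNIP3. Without an intensity trend in the variance, ZNF395 (adjusted p = 0.0596), EFNA1 (0.0599), EGLN3 (0.064), BHLHE41 (0.0552) and BNIP3 (0.0856) did not pass in limma.

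Related genes were also compared inside each library, on values per length (RPKM, recovered counts divided by exon length and library total, with exon lengths from GENCODE 29). A ratio inside a library is free of scaling between libraries, but 2 libraries against 2 cannot give an exact permutation p below 0.333, so the ratios are described and not tested. EPAS1 was at 2.22 and 1.74 times the RPKM of HIF1A in the controls and at 3.31 and 2.76 times after SLFN5 siRNA. EGLN3 was at 0.411 and 0.284 of the RPKM of EGLN1 in the controls and at 0.909 and 0.758 after SLFN5 siRNA. The RPKM of EGLN1 was 12.9 to 13.7 over the 4 libraries and that of EGLN3 was 3.90 to 11.7.

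The ratio of VEGFA to VEGFB was higher after SLFN5 siRNA. VEGFA was at 0.803 and 0.826 of the RPKM of VEGFB in the controls and at 1.38 and 1.52 times it after SLFN5 siRNA. The size of each ratio, and so whether it lies above or below 1, rests on the exon lengths used, such as 14431 bases for VEGFA and 1545 for VEGFB, while its change between libraries does not. STC1 was at 0.103 and 0.0517 of the RPKM of STC2 in the controls and 0.314 and 0.288 after SLFN5 siRNA. The ratio of BHLHE40 to BHLHE41 went from 1.68 and 1.53 to 4.19 and 3.88, with the 2 genes moving in opposite directions. The ratio of BNIP3 to BNIP3L was lower after SLFN5 siRNA, at 1.57 and 1.71 against 2.07 and 2.28. ARNT2 over ARNT was the pair whose groups overlapped, at 0.403 and 0.303 against 0.519 and 0.319.

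**Figure D5:**
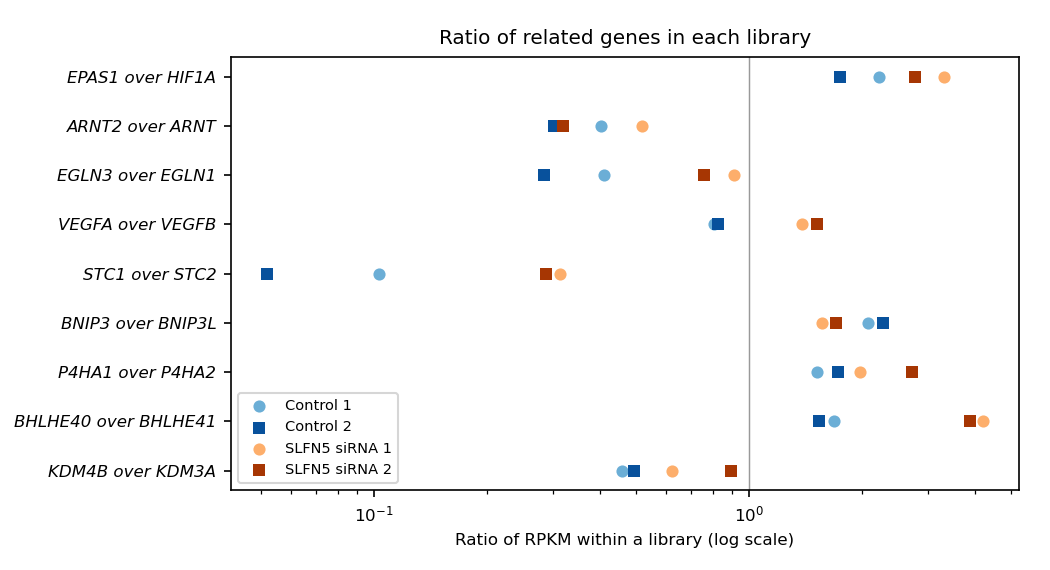
Ratio of the RPKM of 2 related genes inside each library, on a log scale, for 9 pairs. Symbols are single libraries, coloured as in the plot of levels, and the grey line is a ratio of 1. The SLFN5 siRNA symbols lie to the right of the control symbols for 7 pairs, to the left for BNIP3 over BNIP3L, and among them for ARNT2 over ARNT.

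In each group, the library numbered 1 was the higher for a larger share of these genes than of all tested genes. The share was 69.7% of the 33 genes in the controls, against 53.8% of all tested genes. After SLFN5 siRNA it was 69.7%, against 49.7%. Library 1 was above library 2 in both groups for 19 of the 33 genes (57.6%), against 32.5% of all tested genes. Whether same-numbered libraries agreed beyond these shares was not tested. EPAS1, EGLN3, DDIT4, STC1, EFNA1 and ZNF395 were among the 19. Library 1 was also the deeper of the 2 in each group, and the part of depth in this order was not tested.

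Other genes of the HIF machinery changed in both directions, and their difference from the 33 genes was not tested. Of 25 listed regulators and cofactors, 23 were tested, of which 4 were higher (17.4%) and 6 lower (26.1%), with a median log2 change of -0.13. The shares over all tested genes were 13.3% higher and 16.3% lower. The balance in this list depended on the scaling, with 6 higher and 4 lower on library totals alone and 5 of each under quantile normalisation. Of those that changed at least 2-fold, SART1, which binds HIF alpha subunits, rose from 354 and 274 to 673 and 734 (log2 change 1.17, SE 0.17, limma adjusted p = 0.000420). CLOCK, the circadian factor of the same protein family as HIF, fell from 1884 and 2061 to 875 and 841 (log2 change -1.20, SE 0.12, adjusted p = 5.24e-05). RBX1, the RING subunit of the VHL ligase, was at 183 and 298 against 126 and 99.1 (log2 change -1.06, SE 0.26, adjusted p = 0.0103), and failed the test when Control 2 (0.145) or SLFN5 siRNA 2 (0.058) was omitted. NPAS1, another member of that protein family, was near the detection limit, at 1.86 and 0.103 against 10.2 and 12.7 (adjusted p = 0.0336), and lost its call without Control 2 (0.162).

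Among 39 tested of 50 other listed HIF targets outside glycolysis, 9 were higher (23.1%), 12 lower (30.8%) and 18 did not pass. Their median log2 change was -0.12, and the shares over all tested genes were 13.3% higher and 16.3% lower. Here too the balance turned, to 11 higher and 9 lower on library totals alone, 11 and 10 under quantile normalisation, and 11 and 9 without SLFN5 siRNA 2. Of the 39, 7 passed as at least 2-fold higher and 5 as at least 2-fold lower, against 5.16% and 3.13% of all tested genes. These 12 genes had limma adjusted p of at most 0.0364. TGFA, a ligand of the EGF receptor, rose from 1815 and 1442 to 11764 and 11635 (log2 change 2.85). ERO1L, the endoplasmic reticulum oxidase, rose from 562 and 656 to 1694 and 1958 (log2 change 1.58), and PLIN2, a lipid droplet coat protein, from 2126 and 1691 to 3740 and 4002 (log2 change 1.03). IGFBP1, LPCAT1, LONP1 and PTHLH rose by log2 changes of 1.71, 1.43, 1.29 and 1.13. PYGL, the liver glycogen phosphorylase, fell from 1753 and 1640.4 to 484 and 549 (log2 change -1.72), and AK4, a mitochondrial adenylate kinase, from 1998 and 1910 to 936 and 913 (log2 change -1.08). PIM1 and CYB5A had log2 changes of -1.08 and -1.01, and each lost its call without SLFN5 siRNA 2 (adjusted p = 0.240 and 0.180), and CYB5A also without Control 1 (0.118) or Control 2 (0.0708).

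The glycolytic arm of the HIF response, taken as 22 genes for comparison, had 5 genes higher, 11 lower and 6 that did not pass, with a median log2 change of -0.29. The number of lower glycolytic genes was 3 without Control 1 and 6 without any of the other libraries, and it was 7 with TMM rescaling, 5 with quantile normalisation and 6 with library totals alone. Over all genes, lower calls went from 2544 to 2000 with TMM rescaling, 2130 with quantile normalisation and 1744 with library totals alone. No gene of the glycolysis list reached 2-fold, against 5.16% of all tested genes that passed at least 2-fold higher and 3.13% at least 2-fold lower. The difference between this list and the 33 genes above was not tested.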

How the data were processed

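For RNA-seq, 2 libraries with control siRNA and 2 with SLFN5 siRNA were analysed, whereas the design text speaks of triplicates. Per the labels' protocols, poly(A) RNA was prepared with the TruSeq RNA kit for single-end sequencing. Each deposited value is a normalised signal, which the authors derived from counts. Per the submitters' processing notes the authors used edgeR and the build hg19. For aligner, counting program and annotation, the sources used here give nothing. The deposited values match a quantile adjustment of counts to a common library size within each group, a step that no label records. Inverting it here (common dispersion 0.0162, relative tolerance 1e-06) gave whole counts for 100% of values, and depths of 13187517 to 31905328 counts, so low genes carry the larger errors. Genes at 10 or more in at least 2 libraries (15640) were fitted as log2(value + 1) with limma 3.58.1 (R 4.3.3), intensity trend, group alone, and Benjamini-Hochberg adjustment over all genes (threshold 0.05). No count model was run. Fold changes are from this scale and understate low genes. The fit was also run on simulated counts scaled by library totals, unlike the equalised values. It called 84.0% of 2-fold increases and 68.1% of 2-fold decreases there. Of 1.5-fold increases it called 24.0%, and of decreases to 0.67 of the control it called 22.0%. Most changes of that size were thus missed in the simulation. There 15301 of 15498 genes had no change, whereas 29.6% of all genes were called in the data. The adjusted threshold therefore differs, and these shares cannot be read as the shares missed in the data.

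The members and lists were chosen with earlier results of these data known. All 36 members are accounted for, with library values for subunits, sensors and members that passed. Of the other lists, members that passed with a log2 change of at least 1 in size are named, except where a result is not reported here. Of 35 members in the table, 2 were left out of the tests for low counts. Python 3.11.15 with scipy 1.17.1 served for the inversion. Alternatives were the pseudocount, filter, scaling, voom, trend, replicate block and leaving out each library, and library totals alone were added after seeing the data.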

Additional observations from a re-analysis of the deposited data

How the results depend on the processing

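The 18 called members kept their direction under all 14 alternatives. Without the intensity trend in the variance, the members gave 6 higher and 0 lower, the other HIF machinery 1 and 1, the other targets 5 and 3, the glycolysis list 0 and 2, and all genes 672 and 510. The members called there were ADM, ANGPTL4, DDIT4, NDRG1, STC1 and VEGFA. Leaving out each library in turn gave 9 to 13 members higher and 2 to 4 lower, 3 to 5 and 3 to 6 for glycolysis, and 1353 to 1791 and 1588 to 2300 for all genes, with the lowest counts of members and of all genes without Control 2. Lower glycolysis genes numbered 7 with TMM rescaling, 5 with quantile normalisation and 6 with library totals alone. Lower genes over the whole table numbered 2000, 2130 and 1744 in those settings, in place of 2544. Among members that did not pass, the log2 change turned positive for HIF1A (0.052, library totals alone), KDM3A (0.083 without SLFN5 siRNA 2, in a leave-one-out range of -0.336 to 0.083) and STC2 (0.089 under quantile normalisation, 0.054 with library totals alone and 0.094 without Control 2, in a leave-one-out range of -0.231 to 0.094). The cause of these shifts was not tested. The labels number the libraries 1 and 2 in both groups, and the titles of same-numbered libraries begin with the same code, which no label explains. The replicate differences of the groups correlated at 0.19 across genes. With a replicate block, 17 members were higher and 5 lower, the other HIF machinery had 7 higher, and all genes gave 3008 and 3695. The members that passed with this block but not with group alone were ARNT (limma adjusted p = 0.0127), ARNT2 (0.00361), P4HA1 (0.0181) and P4HA2 (0.0162). Depth limits CA9, HIF3A, ANKRD37 and PPFIA4, with at most 160 recovered counts each over the 4 libraries.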
